A study of Homo sapiens with 2 samples.

Results

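The 54 genes described here encode the proteins that copy DNA in S phase, from the factors that mark replication origins to those that make nucleotides and repackage new DNA. They were chosen by gene symbol, with earlier results of these data known. All 54 had a value, out of 17687 named genes on the array. Cultures of SW48, a line established from a human colorectal cancer, received a short interfering RNA (siRNA) that targets YY1 (siYY1) or a negative control siRNA (siControl), each at 5 nmol/L in a lipid reagent, and total RNA was taken after 3 days. YY1 is a zinc finger protein that activates some promoters and represses others. A single siRNA was used against it, so effects of this siRNA on other transcripts cannot be told apart from effects of losing YY1. Each group was 1 whole-transcript GeneChip array, so no difference below has a replicate check and none was tested.

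Replication starts when the origin recognition complex, CDC6 and CDT1 load the MCM2-7 helicase onto DNA in G1, a step called licensing. In S phase the DBF4-dependent kinase CDC7 and the factors CDC45 and GINS turn the loaded helicase on. DNA polymerase alpha-primase then lays down short RNA-DNA primers, and polymerases epsilon and delta extend them with the help of the clamp PCNA and its loaders. Transcription of many of these genes rises at the border of G1 and S under E2F factors, so their RNA is often used as a mark of proliferating cells.

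As a set the replication genes stood slightly lower in siYY1 than in siControl. The median difference over the 54 genes, siYY1 minus siControl on the log2 scale, was -0.13, and it was 0.015 over all named genes. A value below 0 was found for 37 of the 54, which is 68.5%, against 47.8% of all named genes and 49.8% of the 4056 genes with mean levels between 9.99 and 12.65, the middle range of the replication genes. At a threshold of 1.5-fold, 3 of 54 were lower in siYY1 (PRIM2, PRIM1 and CDT1), where 3.90% of all named genes were, so the count past this threshold was close to the background. It was 2 with quantile normalization and with lowess centring, without CDT1. None was 1.5-fold higher, where 3.98% of all named genes were. Among the 8844 genes at or above the median level of named genes, which include 52 of the 54, the shares were 49.6% below 0, 3.78% at least 1.5-fold lower and 3.04% at least 1.5-fold higher. At a smaller threshold, a log2 difference of 0.32, 11 were lower (20.4%) and 2 higher (3.70%), against 13.9% and 14.9% of all named genes. The other 17 genes were above 0. In bulk RNA such as this, fewer cells in S phase and less RNA per cell cannot be told apart.

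The arrays were alike, with a median over all probes of 7.10 in siYY1 and 7.11 in siControl. The colon epithelial markers EPCAM (16.24 in siYY1 and 16.04 in siControl), KRT8 (16.36 and 16.35) and CDX2 (12.06 and 11.91) were bright. So were KRT18 (15.47 in siYY1 and 15.67 in siControl), KRT19 (14.33 and 14.67) and CDH1 (13.57 and 13.55), while VIL1, which encodes the brush border protein villin, was dim (5.68 and 6.04). Of 14 measured markers of fibroblasts, leukocytes and endothelium, 12 lay under 7.54, the median level of named genes, on both arrays. COL1A2 (9.05 in siYY1 and 8.60 in siControl) and CD68 (7.64 and 8.72) were the others. Of these markers LYZ (0.98), PECAM1 (0.76), CDH5 (-0.62) and CD68 (-1.08) differed by 1.5-fold or more, 2 in each direction, and their part in the results below was not tested. The reference gene ACTB was higher by 0.11 and GAPDH differed by -0.025. Because YY1 itself was not analysed here, the depth of the knockdown is not known from these values.

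**Figure D1:**
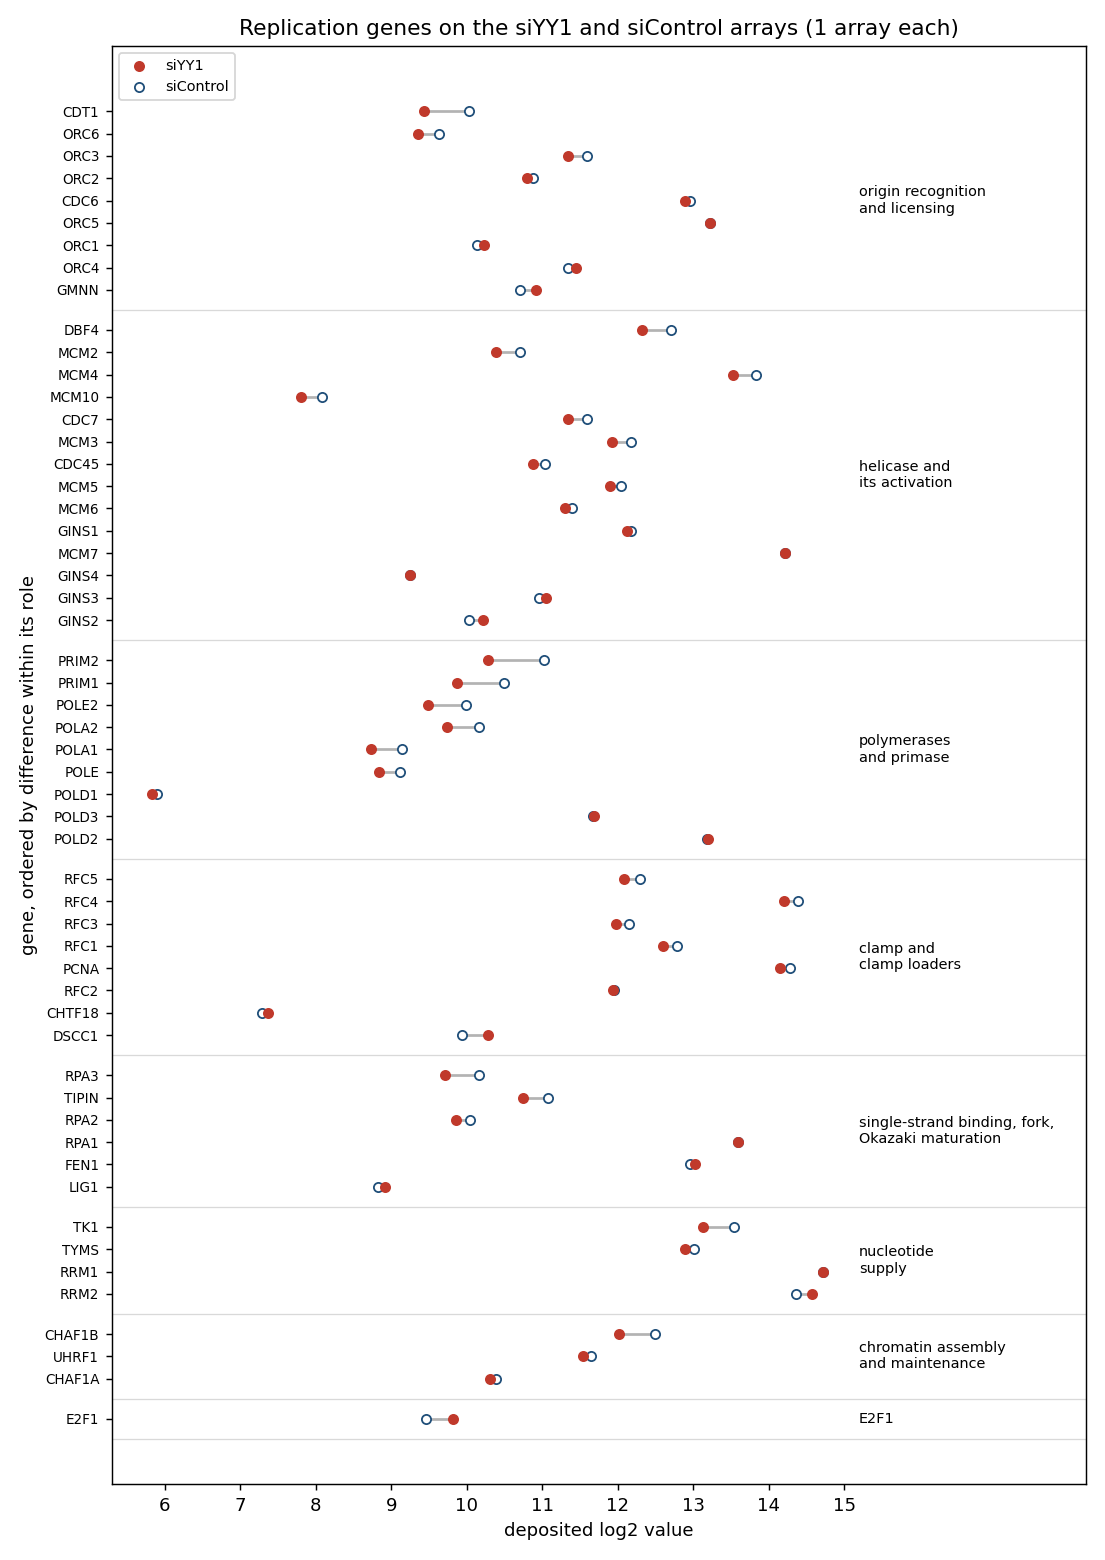
Deposited log2 values of the 54 replication genes on the siYY1 array (filled) and the siControl array (open), grouped by role and ordered by difference within each role. PRIM2, PRIM1 and CDT1 have the widest gaps, with siYY1 on the low side, and E2F1 and DSCC1 have the widest gaps with siYY1 on the high side.

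By role, the polymerases and primase had the lowest median. Their 9 genes had a median difference of -0.41, and 7 of them were below 0. Within them the 4 subunits of DNA polymerase alpha-primase, the enzyme that starts every new strand, held 4 of the 5 lowest values. The role median is the value of POLA1, while POLD1 (-0.074), POLD2 (0.015) and POLD3 (0.0072) stood near 0. A median of this role without alpha-primase was not taken. PRIM2, the large primase subunit, stood at 10.28 in siYY1 and 11.03 in siControl, a difference of -0.75 or 1.68-fold. PRIM1, the catalytic primase subunit that makes the RNA primer, stood at 9.87 in siYY1 and 10.49 in siControl, a difference of -0.63 or 1.55-fold. The polymerase subunits POLA1 (8.74 in siYY1 and 9.15 in siControl) and POLA2 (9.74 and 10.16) differed by -0.41 and -0.42. All 4 subunits were thus lower in siYY1, although POLA1 and POLA2 did not reach 1.5-fold. PRIM2 ranked 290 from the bottom among 17687 genes, and 1.51% of the 1661 genes within 0.5 of its mean level lay as low or lower. For PRIM1 that share was 4.20%, for POLA2 12.1% and for POLA1 12.4%. The grouping by complex, here and below, was chosen after the values were seen. RefSeq names a pseudogene of PRIM2, PRIM2BP, and the probe set may not separate them. In all, 13 of the 54 genes have pseudogenes named after them in RefSeq, among them PCNA, DBF4, RPA3 and RRM2, and their single values are uncertain for that reason. Without the 4 alpha-primase genes, the other 50 had a median difference of -0.094, with 33 below 0.

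The promoters of these 4 genes and of CDT1 were read for the motifs that cell cycle factors and YY1 are known to bind. PRIM2, PRIM1 and CDT1 are given because they passed 1.5-fold, and POLA1 and POLA2, chosen after their values were seen, because they complete the complex. Each runs 5′ to 3′ from 250 bases before the start to 50 bases after it, from RefSeq on build GRCh38.p14. The start used for PRIM2 lies 93265 bases inside the span of that gene in RefSeq, and the starts of the other 4 lie at the first base of their spans. Capitals mark matches on either strand to an E2F-like motif (the letters TTTGGCG, or the letters TTTCGCG, or else the letters TTTCCCG). They also mark CCAAT, which the factor NF-Y binds, the YY1-like motif GATGGCG, the other YY1-like motif CCATNTT, and TTTGAA, the CHR element of cell cycle genes.
PRIM2, chr6:57314555-57314854, plus strand: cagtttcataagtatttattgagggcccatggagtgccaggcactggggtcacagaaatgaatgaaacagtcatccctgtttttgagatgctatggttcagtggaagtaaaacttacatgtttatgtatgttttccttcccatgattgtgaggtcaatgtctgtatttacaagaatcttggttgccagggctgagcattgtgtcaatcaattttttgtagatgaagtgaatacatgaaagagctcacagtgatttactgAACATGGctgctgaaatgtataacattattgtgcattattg
PRIM1, chr12:56752274-56752573, minus strand: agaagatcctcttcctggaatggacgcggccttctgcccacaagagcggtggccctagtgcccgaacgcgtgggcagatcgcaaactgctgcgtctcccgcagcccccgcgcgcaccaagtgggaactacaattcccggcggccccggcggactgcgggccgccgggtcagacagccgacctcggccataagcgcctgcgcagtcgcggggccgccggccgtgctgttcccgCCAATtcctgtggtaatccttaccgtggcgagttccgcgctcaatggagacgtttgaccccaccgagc
CDT1, chr16:88803539-88803838, plus strand: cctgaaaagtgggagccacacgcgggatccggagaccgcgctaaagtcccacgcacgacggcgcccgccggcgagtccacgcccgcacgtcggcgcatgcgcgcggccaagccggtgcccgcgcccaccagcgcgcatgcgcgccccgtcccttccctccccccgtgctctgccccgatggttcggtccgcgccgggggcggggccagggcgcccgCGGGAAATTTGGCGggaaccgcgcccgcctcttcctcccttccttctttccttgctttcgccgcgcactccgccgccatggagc
POLA1, chrX:24693668-24693967, plus strand: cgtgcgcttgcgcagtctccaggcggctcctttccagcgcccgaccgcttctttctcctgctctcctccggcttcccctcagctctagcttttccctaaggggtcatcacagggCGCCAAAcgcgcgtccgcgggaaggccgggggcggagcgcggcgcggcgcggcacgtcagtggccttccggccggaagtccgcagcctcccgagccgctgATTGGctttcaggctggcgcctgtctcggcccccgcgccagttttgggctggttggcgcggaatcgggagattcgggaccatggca
POLA2, chr11:65261712-65262011, plus strand: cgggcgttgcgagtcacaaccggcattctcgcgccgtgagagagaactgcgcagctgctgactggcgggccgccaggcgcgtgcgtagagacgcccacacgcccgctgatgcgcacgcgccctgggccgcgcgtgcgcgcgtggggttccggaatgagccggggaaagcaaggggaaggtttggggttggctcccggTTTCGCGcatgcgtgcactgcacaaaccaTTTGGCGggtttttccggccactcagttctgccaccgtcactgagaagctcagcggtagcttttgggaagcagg

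In these windows CDT1 and POLA2 had 2 E2F-like matches each, POLA1 had 1 and PRIM1 had none. In CDT1 the E2F-like matches adjoin each other, 34 and 27 bases before the start. PRIM1 had a CCAAT match 18 bases before the start, and PRIM2, read at its internal start, had the YY1-like CCATNTT on the opposite strand, 10 bases after that start, and no E2F-like match. A promoter was found for 47 of the 54 genes and, for comparison, for 27305 genes in all. The start lay at the first base of the gene's span for 41 of the 47 and inside it for 6, among them PRIM2 and ORC1. E2F-like letters were present in 24 of the 47 (51.1%), against 7.28% of all promoters and 9.43% of the 14250 promoters of genes on the array. CCAAT was present in 57.4% of the 47, against 35.7% of all promoters. The YY1-like GATGGCG was found in 1 gene, ORC1 (2.13%, against 4.35% of all promoters), and CCATNTT in ORC1, POLE2, PRIM2 and RRM1 (8.51%, against 15.9%). These YY1-like motifs can overlap, and ORC1 held both. TTTGAA was found in DBF4 and RRM1 (4.26%, against 15.4%). Genes with E2F-like letters had a median difference of -0.15 with 20 of 24 below 0, and genes without them -0.071 with 13 of 23 below 0. For CCAAT the order was the other way, at -0.086 for the 27 genes with it and -0.18 for the 20 without it. The 4 genes with CCATNTT had a median of -0.25 with 2 below 0, and the 43 without it -0.13 with 31 below 0. These medians were not tested. A match is a description of letters and not a binding site.

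The other replicative polymerases differed from one another. POLE2, the second subunit of the leading-strand polymerase epsilon, stood at 9.49 in siYY1 and 9.99 in siControl, a difference of -0.50 or 1.41-fold. It was the next lowest of the 54 genes after those past 1.5-fold, and 8.05% of the 1466 genes of like level lay as low or lower. The catalytic subunit POLE stood at 8.84 in siYY1 and 9.12 in siControl, a difference of -0.28. Outside the 54 genes, the histone-fold subunit POLE4 differed by -0.58, short of 1.5-fold, and its partner POLE3 by -0.0014, both named after their values were seen. Polymerase epsilon was therefore not uniform. The subunits of polymerase delta, the lagging-strand enzyme, that are among the 54 genes stood near 0. POLD2 stood at 13.20 in siYY1 and 13.18 in siControl, and POLD3 at 11.68 on both, with differences of 0.015 and 0.0072 that changed sign with quantile normalization, and that of POLD3 also with median centring. The catalytic subunit POLD1 was dim, at 5.82 in siYY1 and 5.90 in siControl, under the median level of named genes, so its difference of -0.074 is uncertain. The small subunit POLD4, not among the 54 genes, differed by -0.37 and was named after its value was seen.

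**Figure D2:**
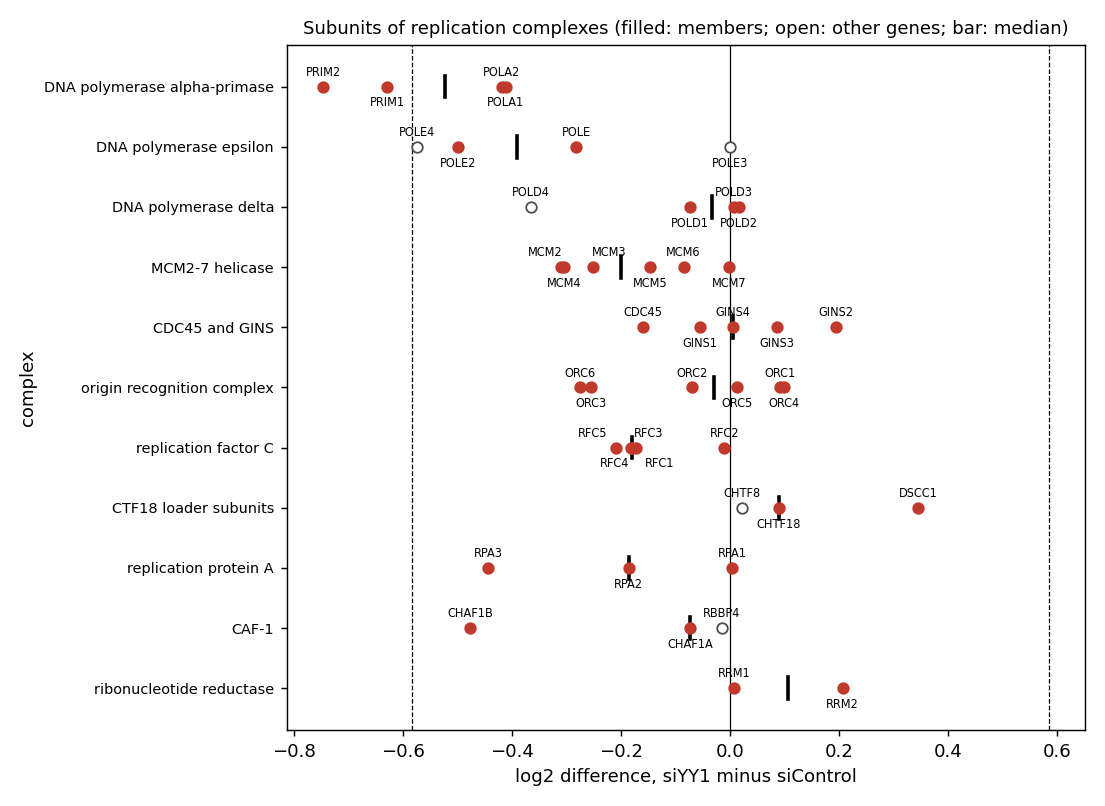
Log2 difference, siYY1 minus siControl, of each subunit of the replication complexes, with filled points for the 54 genes, open points for subunits outside them, bars for medians and dashed lines at 1.5-fold. The 4 alpha-primase subunits lie between -0.75 and -0.41, whereas 3 of the 4 polymerase delta subunits lie within 0.1 of 0.

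Licensing genes gave a mixed picture. Of 9 genes, 5 were below 0, and the median difference was -0.063. CDT1, which brings the helicase to origins, stood at 9.43 in siYY1 and 10.03 in siControl, a difference of -0.60 or 1.51-fold, just past the threshold of 0.585, and it came short of it with quantile normalization (-0.57) and lowess centring (-0.58). Of the 1474 genes within 0.5 of its mean level, 4.95% lay as low or lower. Geminin (GMNN), the inhibitor of CDT1, was on the other side, at 10.92 in siYY1 and 10.71 in siControl, a difference of 0.21. Of the 1678 genes within 0.5 of its mean level, 21.9% lay as high or higher. CDC6, the ATPase that works with CDT1, differed little, at 12.89 in siYY1 and 12.95 in siControl. The loader CDT1 and its inhibitor lay on opposite sides of 0 on these arrays, but the GMNN difference was of a common size and was not tested.

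The origin recognition complex was split evenly, with 3 of 6 subunits below 0. ORC6, the smallest subunit, stood at 9.35 in siYY1 and 9.63 in siControl (-0.28), and ORC3 at 11.34 and 11.60 (-0.26). ORC2 stood at 10.80 in siYY1 and 10.88 in siControl (-0.071). ORC1, the subunit whose protein is cell cycle regulated, was at 10.22 in siYY1 and 10.13 in siControl (0.091). ORC4 was at 11.44 and 11.34 (0.099). ORC5, at 13.23 and 13.22, had a difference of 0.0125 that changed sign with quantile normalization, median centring and lowess centring. No subunit of this complex differed by 0.32 or more.

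Helicase genes were mostly on the low side, in small steps. Of 14 genes for the helicase and its activation, 11 were below 0, with a median difference of -0.15 and no gene past 1.5-fold. All 6 subunits of the MCM2-7 ring, a group chosen after the values were seen, were below 0, where 47.8% of all named genes were. They stayed below 0 after quantile normalization and lowess centring, which rescale the same arrays and add no replicate. Median centring lowered every difference by 0.015, so it could not bring one above 0. MCM2 stood at 10.39 in siYY1 and 10.70 in siControl (-0.31), and MCM4 at 13.53 and 13.83 (-0.30). MCM3 followed at 11.92 in siYY1 and 12.18 in siControl (-0.25), and MCM5 at 11.90 and 12.05 (-0.15). MCM6 was at 11.30 in siYY1 and 11.39 in siControl (-0.086), and MCM7 at 14.22 on both (-0.0031). The ring subunits therefore ranged from nearly equal to 1.24-fold lower. Of its activating kinase, the regulatory subunit DBF4 stood at 12.32 in siYY1 and 12.71 in siControl (-0.38), and 6.68% of the 1182 genes of like level lay as low or lower. The kinase CDC7 stood at 11.34 and 11.60 (-0.25).

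The factors that join the ring to form the active helicase did not share one direction. MCM10, an initiation factor, stood at 7.80 in siYY1 and 8.08 in siControl (-0.27). CDC45 stood at 10.88 in siYY1 and 11.04 in siControl (-0.16), and GINS1 at 12.13 and 12.18 (-0.055). GINS2, at 10.22 in siYY1 and 10.03 in siControl, was higher by 0.19. GINS3, at 11.05 and 10.96, was higher by 0.086. GINS4 was level at 9.26 in siYY1 and 9.25 in siControl, and its difference of 0.0049 changed sign with median centring. CDC45 and GINS together had a median of 0.0049, against -0.20 for the MCM2-7 ring, with no test of the difference.

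Of the 8 clamp and clamp loader genes, 6 were below 0, with a median of -0.15 and none past 1.5-fold. PCNA, the sliding clamp, stood at 14.15 in siYY1 and 14.29 in siControl (-0.13). All 5 subunits of replication factor C, which loads PCNA, were below 0, where 47.8% of all named genes were. This group, too, was chosen after the values were seen. Its subunits stayed below 0 with quantile normalization and lowess centring, which rescale the same arrays and add no replicate. RFC5 stood at 12.08 in siYY1 and 12.29 in siControl (-0.21), RFC4 at 14.20 and 14.38 (-0.18), and RFC3 at 11.97 and 12.16 (-0.18). RFC1, the large subunit, stood at 12.61 in siYY1 and 12.78 in siControl (-0.17), and RFC2 at 11.93 and 11.95 (-0.011). Of the alternative loader that contains CHTF18 and acts in sister chromatid cohesion, the 3 subunits not shared with replication factor C were not lower. Among these, DSCC1 stood at 10.29 in siYY1 and 9.94 in siControl, a difference of 0.34 and the second highest of the 54 genes. CHTF18 itself was at 7.37 in siYY1 and 7.28 in siControl (0.089), under the median level of named genes. CHTF8, the partner of DSCC1 and not among the 54 genes, differed by 0.022 and was named after its value was seen.

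At the fork, replication protein A coats single-stranded DNA. Its small subunit RPA3 stood at 9.71 in siYY1 and 10.16 in siControl (-0.44), and RPA2 at 9.85 and 10.04 (-0.19). The large subunit RPA1 was at 13.59 on both arrays, with a difference of 0.0029 that changed sign with quantile normalization, median centring and lowess centring. TIPIN, which with TIMELESS holds the fork together, stood at 10.74 in siYY1 and 11.07 in siControl (-0.33). The enzymes that finish Okazaki fragments were not lower. The flap nuclease FEN1 stood at 13.02 in siYY1 and 12.96 in siControl (0.064), and the ligase LIG1 at 8.91 and 8.83 (0.084). Of the 6 genes of this role, 3 were thus below 0 and 3 above it.

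Nucleotide supply was led by TK1, the thymidine kinase of the salvage pathway. TK1 stood at 13.13 in siYY1 and 13.55 in siControl, a difference of -0.42, and 5.48% of the 839 genes of like level lay as low or lower. TYMS, which makes thymidylate, stood at 12.89 in siYY1 and 13.02 in siControl (-0.13). Ribonucleotide reductase went the other way or stayed level. Its S-phase subunit RRM2 stood at 14.57 in siYY1 and 14.37 in siControl (0.21), and RRM1 at 14.72 on both, with a difference of 0.0071 that changed sign with median and lowess centring. Both thymidine enzymes were therefore below 0, and neither reductase subunit was in the deposited values.

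The 3 chromatin genes were below 0. CHAF1B, a subunit of the CAF-1 chaperone that places histones on new DNA, stood at 12.02 in siYY1 and 12.49 in siControl, a difference of -0.48, and 4.58% of the 1310 genes of like level lay as low or lower. CHAF1A, its large partner, stood at 10.32 and 10.39 (-0.074). UHRF1, which brings the maintenance DNA methyltransferase to new DNA, stood at 11.55 in siYY1 and 11.65 in siControl (-0.10). E2F1, the transcription factor that drives many of these genes, was the highest of the 54. It stood at 9.82 in siYY1 and 9.46 in siControl, a difference of 0.36, and 11.2% of the 1438 genes of like level lay as high or higher. So the factor and most of the genes listed with it lay on opposite sides of 0, none of them by as much as 2-fold.

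**Figure D3:**
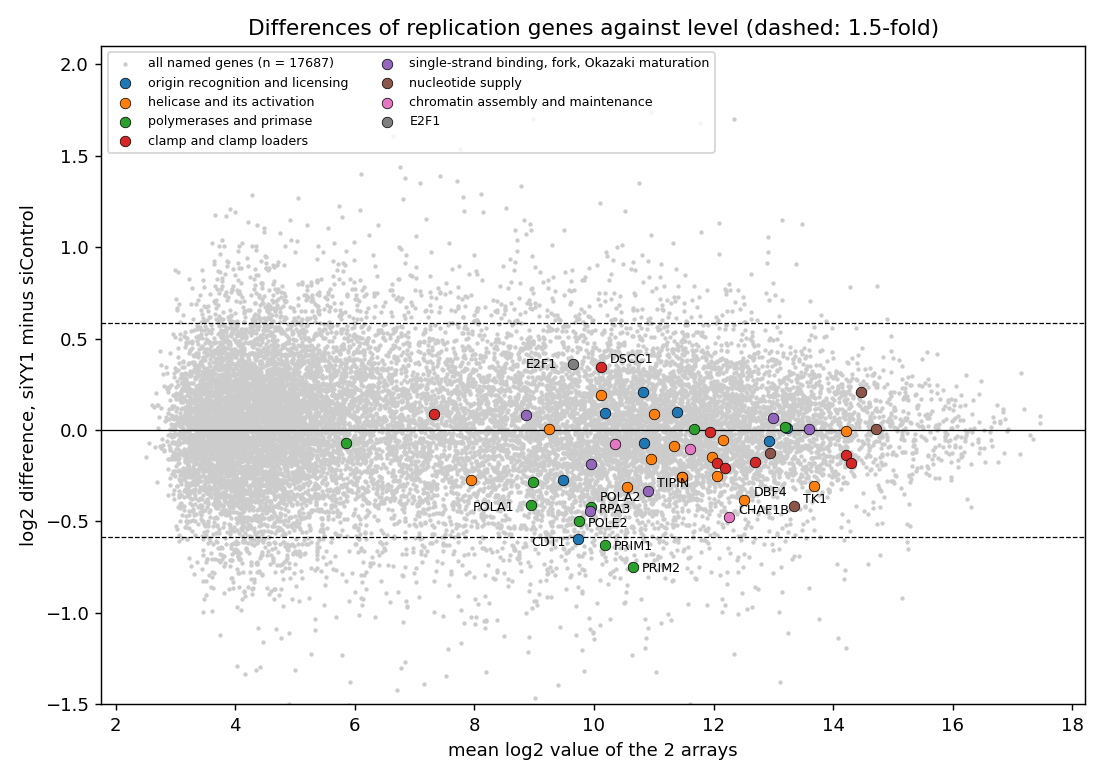
Log2 difference, siYY1 minus siControl, against the mean log2 value of both arrays, with all 17687 named genes in grey and the 54 replication genes coloured by role. Named points differed by 0.32 or more, and 10 grey genes lie beyond the plotted range. The replication genes sit mostly at mid to high level and lean below 0, within the scatter of other genes.

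Related gene lists were then set beside the 54 genes. The lists, too, were drawn up with earlier results of these data known. Of all named genes, 47.8% were below 0, 3.90% at least 1.5-fold lower and 3.98% at least 1.5-fold higher. A single gene past 1.5-fold in a list of 20 is thus close to that background. Of 20 other replication genes measured, 13 were below 0, with a median of -0.099. TOP1, the topoisomerase that relieves twist ahead of the fork, stood at 11.84 in siYY1 and 12.62 in siControl, a difference of -0.78 or 1.72-fold, and was the only one of them past 1.5-fold. Among 16 other nucleotide supply genes, 12 were below 0, with a median of -0.065. CAD, which starts pyrimidine synthesis, stood at 9.57 in siYY1 and 10.52 in siControl (-0.95). CTPS1, a CTP synthase, stood at 11.16 in siYY1 and 11.82 in siControl (-0.66). IMPDH1, an enzyme of guanine nucleotide synthesis, was higher, at 11.83 in siYY1 and 11.19 in siControl (0.65). These were the 3 genes of that list past 1.5-fold, 2 lower and 1 higher.

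Of 13 other chromatin replication genes, 9 were below 0 (median -0.044), and NASP, a histone chaperone, was past 1.5-fold at 12.77 in siYY1 and 13.42 in siControl (-0.65). The replication checkpoint had 9 of 10 genes below 0 (90.0%, against 47.8% of all named genes). Its median was -0.10, and none was past 1.5-fold. Among 10 S-phase cyclins, kinases and regulators the median was 0.044, but CDK2, the kinase that drives S phase with cyclins E and A, stood at 12.26 in siYY1 and 13.12 in siControl (-0.86 or 1.82-fold). The list kept for the E2F and RB family leaned the other way, where 12 of 17 genes were above 0, 5 were below it and the median was 0.18. That list also held LIN9 (0.28), LIN37 (0.52), LIN52 (0.48), LIN54 (0.34) and MYBL2 (0.20), which are neither E2F nor RB genes. A median without them was not taken, so the lean is that of the list and not of the family. E2F5, a mostly repressive E2F, was the 1 gene of that list past 1.5-fold, at 9.78 in siYY1 and 10.51 in siControl (-0.73). Genes of G2 and mitosis were spread around 0, with 17 of 32 below it, a median of -0.035 and none past 1.5-fold. The difference between these lists and the 54 genes was not tested.

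**Figure D4:**
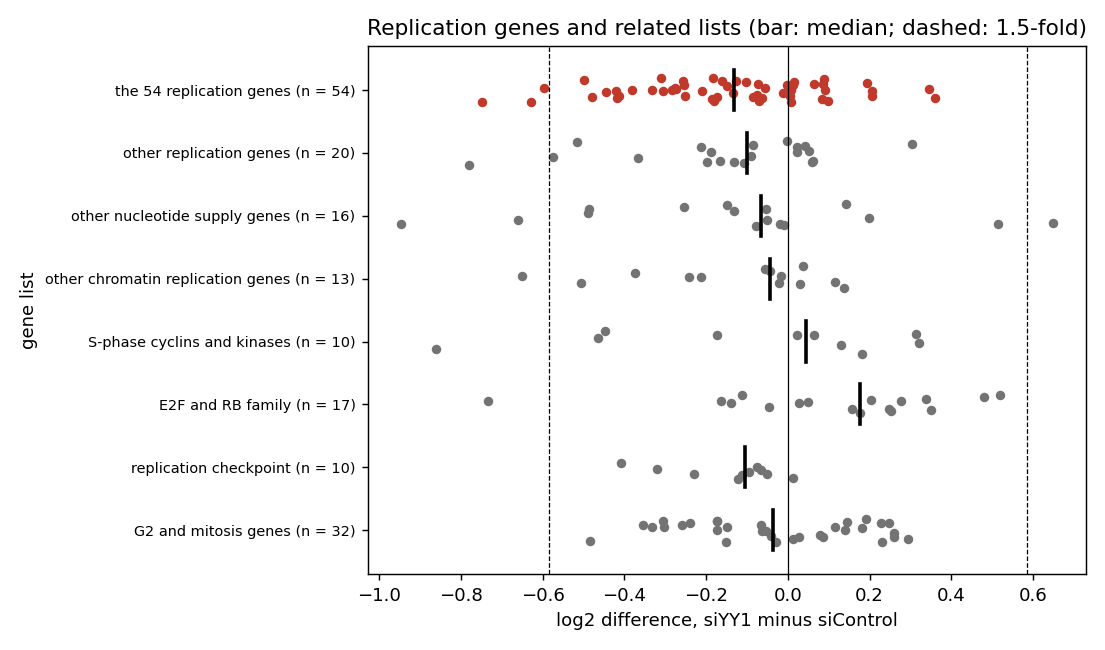
Log2 difference, siYY1 minus siControl, of the 54 replication genes (top) and of each related list, 1 point per gene, with bars for medians and dashed lines at 1.5-fold. Medians run from -0.13 for the 54 replication genes to 0.18 for the E2F and RB family list, which also holds LIN genes and MYBL2.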

How the data were processed

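RNA from 1 siYY1 and 1 siControl culture was measured on whole-transcript GeneChips, per the labels' protocols. The authors deposited 1 value per probe set, taken here as log2 from its range (2.32 to 17.97 in siYY1 and 2.46 to 17.90 in siControl). Software, normalization and log base were not stated in the labels or the file, and another base would change every fold. Once sorted, the arrays' values were within 0.153 of each other.

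Probe sets were named through GEO's platform annotation and RefSeq (GRCh38.p14): 17709 of 21448 had 1 symbol, 0 had several and 3739 were unnamed here. The probes of 20 genes were averaged, and each of the 54 genes had 1 probe. POLD1 and CHTF18 lay under the median level of named genes (7.54). Groups came from the sample titles. With 1 array per group no test was possible, so fixed log2 differences of 0.585 (1.5-fold) and 0.32 were used, and the number of arrays limits the precision. The members and lists were chosen with earlier results of these data known. Every member is named, and of the other lists every gene past 1.5-fold. Alternatives were quantile normalization, median and lowess centring (fraction 0.3), the brightest probe, filters on level, values of 16 or more left out, and other folds. Fold counting was tested on simulated data with true changes of 2-fold or more, so changes near 1.5-fold were not covered. Tools were Python 3.11.15, numpy 2.4.6, pandas 2.3.3, statsmodels 0.14.6 and matplotlib 3.10.9.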

Additional observations from a re-analysis of the deposited data

How the results depend on the processing

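No paired analysis was possible because each group had 1 array, and no replicate could be left out. The median difference of the 54 genes ran from -0.15 with median centring to -0.11 for the 32 genes at or above the 75th percentile of level (10.83). The number below 0 was 42 with median centring, 41 with quantile normalization and 40 with lowess centring. The share of all named genes below 0 was 48.8% with quantile normalization and 49.8% with lowess centring. CDT1 came short of 1.5-fold with quantile normalization (-0.57) and lowess centring (-0.58), which left PRIM2 and PRIM1. Among the 32 brightest genes, 23 were below 0 and 0 were 1.5-fold lower, because PRIM2, PRIM1 and CDT1 are dimmer than that level. The share below 0 of all named genes that bright was not computed. Within these 32 the median was 0.011 for polymerases and primase, with only POLD2 and POLD3 left. It was -0.29 for the chromatin genes, with only CHAF1B and UHRF1 left. At a log2 difference of 0.32, 11 genes were lower and 2 higher. At 2-fold, 0 were lower and 0 higher. No difference of a single gene moved by more than 0.047 under the scalings tried. With 1 array a group, the spread between cultures is unknown, and no difference can be set against it. None of the 54 genes had a value of 16 or more, so leaving such values out changed nothing.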
